A study of Mus musculus with 4 samples.

Results

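The matrix metalloproteinases are zinc-dependent proteases that cut extracellular matrix and cell-surface proteins, and the Timps are their tissue inhibitors. 10 of these genes, Mmp2, Mmp3, Mmp7, Mmp9, Mmp12, Mmp14, Mmp19, Timp1, Timp2 and Timp3, were taken by Ensembl identifier from the 30406 genes that all matrices share. Their counts were summed per library and per cell class over cells from mouse common bile duct, the main duct of the extrahepatic biliary tree. One library, with the genotype label Prom1_BcatGOF, came from duct in which Ctnnb1 (beta-catenin) carried a mosaic gain of function, and is called GOF here. The other 3 libraries came from wild-type duct, and no library was treated. The labels give neither the animals' age, sex or strain, nor the construct, nor the share of cells in which it was active. They do not say that the wild-type libraries are separate animals, so p-values reflect the spread among these libraries alone, part or all of which may be technical. The GOF group is 1 library, assumed in every test to vary like the wild-type libraries.

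Secreted metalloproteinases are made as inactive proenzymes and are activated by removal of the propeptide, often by plasmin or by one another. Membrane-type Mmp14 activates proMmp2 at the cell surface, with Timp2 as the adaptor between them. Many metalloproteinase genes are induced through AP-1 sites, and Mmp7, the epithelial matrilysin, is a known target of beta-catenin signalling in intestinal tumours.

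Mmp3, Mmp7 and Mmp12 lie in the metalloproteinase cluster on chromosome 9, at chr9:7445822-7455975, chr9:7692090-7699585 and chr9:7344381-7369499, all on the plus strand of GRCm38 (GENCODE annotation). Mmp2 lies at chr8:92827291-92853420, Mmp9 at chr2:164940780-164955850, Mmp14 at chr14:54431612-54445364 and Mmp19 at chr10:128790910-128800824. Timp1 lies at chrX:20870166-20874735, Timp2 at chr11:118301069-118355740 on the minus strand, and Timp3 at chr10:86300372-86349506. All 10 are protein-coding genes, and the counts cover the whole gene near its 3′ end.

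The promoters of the 3 cluster genes are shown because the AP-1 letters TGAGTCA were found in them and in no other member searched. Of the 10 members, 7 had a promoter in the RefSeq table for GRCm38.p6. In the 250 bases before the transcript start, searched on both strands, 3 of those 7 held the letters, against 5.16% of 27025 genes with a promoter. The 120 bases before each start are printed, all from the plus strand, with the AP-1 letters in capitals.
Mmp3, chr9:7445702-7445821: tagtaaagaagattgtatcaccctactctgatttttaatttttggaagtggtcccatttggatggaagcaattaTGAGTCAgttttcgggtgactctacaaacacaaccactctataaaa
Mmp7, chr9:7691970-7692089: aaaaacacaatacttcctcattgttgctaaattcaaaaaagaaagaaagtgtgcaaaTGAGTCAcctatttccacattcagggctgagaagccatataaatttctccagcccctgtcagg
Mmp12, chr9:7347254-7347373: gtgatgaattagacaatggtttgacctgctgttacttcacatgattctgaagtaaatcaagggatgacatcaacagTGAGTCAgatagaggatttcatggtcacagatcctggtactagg
The letters end 40 bases before the start in Mmp3, 57 bases before it in Mmp7 and 38 bases before it in Mmp12. Mmp12 and Mmp7 each have a second start in the table. The Mmp12 promoter shown belongs to the start inside the gene, and the window of its outer start holds none of the letters. The TCF/LEF letters CTTTGAT, searched in the same way and present in 3.72% of genes with a promoter, were found in 1 of the 9 windows of members, that of the second Mmp7 start. A match is a description of these letters and not a shown binding site.

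After filtering, 9220 GOF cells and 4314, 2408 and 2057 wild-type cells remained, in that order of wild-type libraries 1, 2 and 3 here and throughout. Classes were set by raw counts of lineage markers, none of them a member. Krt8, a keratin of simple epithelia, was itself used to set the epithelial class. Its epithelial level, 3115 CPM for GOF against 3622, 2145 and 1386 CPM for the wild-type libraries, is therefore no check on the labels. CPM is the gene's molecules (UMIs) per 1000000 UMIs of that class in that library. The GOF library was deeper, with 113596685 UMIs against 43737469, 17358894 and 9558637, and macrophages were 14.4% of its cells against 1.97%, 5.36% and 5.30%. Libraries shared 5 to 19 cell barcodes per pair. The GOF and wild-type matrices came from different versions of Cell Ranger, so genotype and this processing cannot be told apart. In the epithelium, Axin2, a feedback target of beta-catenin, reached 113 CPM in GOF against 2.88, 5.97 and 5.27 CPM in wild type. Ctnnb1 itself stood at 274 CPM against 580.0, 562 and 463 CPM, which says nothing about the construct, since tags near the 3′ end need not cover an altered part.

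In the normal duct the members differed in the class where they were highest. Mmp2, Mmp3, Mmp14, Mmp19 and Timp2 were highest in fibroblasts, Mmp7 in epithelium, Mmp12 in macrophages, Timp1 in mesothelial cells and Timp3 in lymphatic endothelium, as means over the 9 classes with at least 20 cells in every library. Mmp9 was higher in neutrophils than in any of these. Fibroblasts here are cells led by fibroblast markers with Dpt, Lum or Pi16 and with no mesothelial-marker UMI. A rule of no UMI depends on depth, and their median UMIs per cell were 5247 in GOF and 3662.5, 2032.5 and 1543 in wild type. The part of depth in the fibroblast results was not tested. A second stromal class is called stroma with mesothelial markers. It holds cells led by fibroblast markers but with more mesothelial-marker than Dpt, Lum or Pi16 UMIs. It also holds cells led by mesothelial markers that lacked the required margin over the fibroblast score. The share of each kind may differ between libraries and was not tested.

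**Figure D1:**
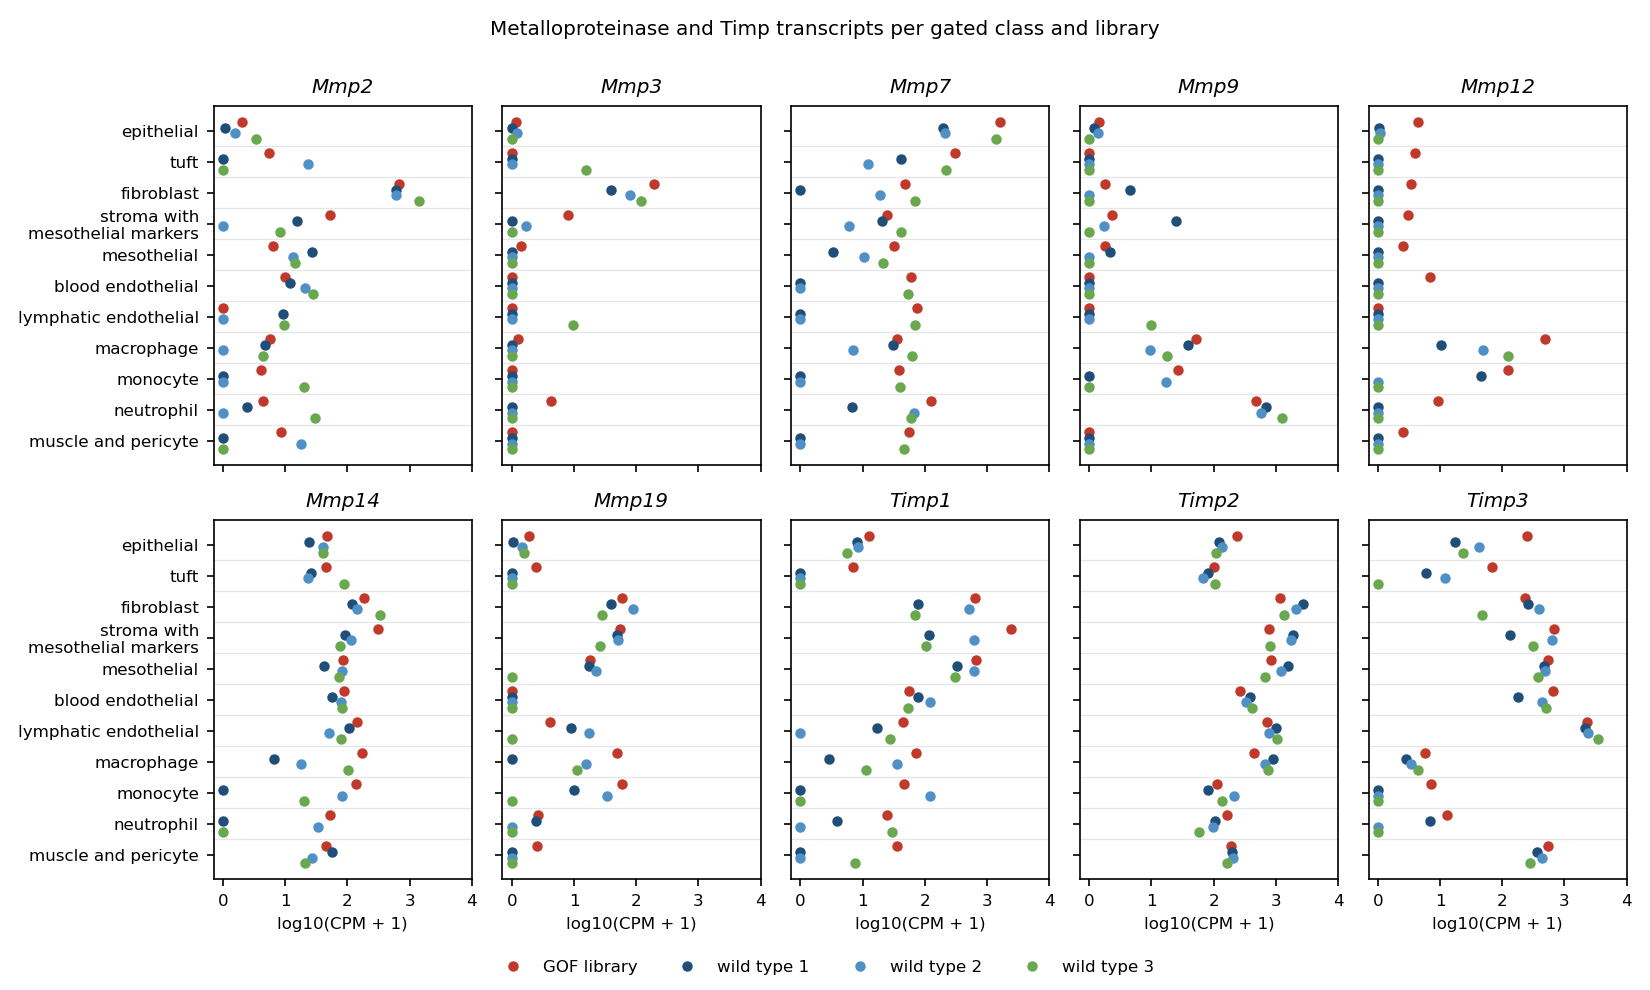
Level of each member as log10(CPM + 1) by cell class, with 1 point for each library. Mmp7 is highest in epithelium, where wild type 3 (1378 CPM) sits beside GOF (1643 CPM) and apart from wild type 1 and 2 (195 and 207 CPM), while Timp3 in GOF epithelium (249 CPM) lies above all 3 wild-type points.

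Mmp2, the gelatinase that digests basement-membrane collagen, stood at 594, 602 and 1418 CPM in wild-type fibroblasts and at 0.0619, 0.578 and 2.34 CPM in wild-type epithelium. Every fibroblast value lay far above every epithelial one, and the difference was 10.44 ± 0.56 (log2, SE; adjusted p = 8.31e-15, edgeR quasi-likelihood test, libraries as blocks, Benjamini-Hochberg adjustment over all genes). Its next classes in order were blood endothelium at 19.1 ± 7.80 CPM and mesothelial cells at 17.3 ± 7.54 CPM (SD, n = 3), which did not differ beyond their spread. Mmp3, a stromelysin of connective tissue, stood at 38.9, 77.5 and 119 CPM in fibroblasts, which held 91.7%, 81.2% and 92.9% of its UMIs in the 3 libraries. It was too rare elsewhere for the filter on low counts. With every gene kept, Mmp3 was higher in fibroblasts than in epithelium (adjusted p = 5.33e-30), and so was Mmp19 (adjusted p = 9.70e-35).

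Mmp7 stood at 195, 207 and 1378 CPM in wild-type epithelium. Wild-type library 3 stood far above the other 2, so the spread in the normal group was as wide as its mean (593 ± 679.7 CPM, SD, n = 3). Within each library epithelium was still the highest class, and it held 93.8%, 87.5% and 79.6% of all Mmp7 UMIs. Fibroblasts stood lower than epithelium by 4.37 ± 0.48 (log2, SE; adjusted p = 1.08e-08) and macrophages by 3.95 ± 0.40 (adjusted p = 1.66e-09).

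Mmp12, the macrophage elastase, stood at 9.30, 47.2 and 123 CPM in wild-type macrophages, from 5, 39 and 36 UMIs, and at or under 0.0964 CPM in wild-type epithelium. The tenth of macrophages with most Mmp12 held all of these UMIs in every wild-type library. Mmp9, the gelatinase stored in neutrophil granules, stood at 693, 584 and 1253 CPM in neutrophils, of which library 3 had only 17. In macrophages it stood at 37.2, 8.47 and 17.1 CPM. With every gene kept, both were higher in macrophages than in epithelium (adjusted p = 1.47e-39 for Mmp12 and 7.45e-13 for Mmp9).

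Mmp14, the membrane-type activator of Mmp2, was highest in wild-type fibroblasts at 198 ± 118 CPM, followed by stroma with mesothelial markers at 93.5 ± 18.7 CPM and lymphatic endothelium at 77.5 ± 27.7 CPM (SD, n = 3). Fibroblasts lay above epithelium by 2.60 ± 0.39 (log2, SE; adjusted p = 2.81e-06) and above macrophages by 2.67 ± 0.47 (adjusted p = 3.42e-05). These next classes did not separate from each other beyond their spread. Mmp19 had the same leading classes, with 51.9 ± 33.0 CPM in fibroblasts and 41.3 ± 13.9 CPM in stroma with mesothelial markers, values that overlap.

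Among the inhibitors, Timp1 stood at 330.5, 618 and 301 CPM in wild-type mesothelial cells, the lining of the duct's outer surface, and at 7.06, 7.52 and 4.68 CPM in epithelium. The groups did not overlap, and mesothelial cells were higher by 5.92 ± 0.46 (log2, SE; adjusted p = 4.08e-11). Both stromal classes overlapped the mesothelial cells, with 280.1 ± 294 CPM in stroma with mesothelial markers and 219.6 ± 254 CPM in fibroblasts (SD, n = 3). Timp2 stood at 2779, 2086 and 1350.0 CPM in fibroblasts against 122, 134 and 109 CPM in epithelium, a difference of 4.16 ± 0.29 (adjusted p = 1.27e-12). It was also above epithelium in macrophages, by 2.73 ± 0.28 (adjusted p = 1.60e-09).

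Timp3, the inhibitor that stays bound to matrix, stood at 2143, 2390.5 and 3405 CPM in wild-type lymphatic endothelium. Mesothelial cells came next at 437 ± 60.8 CPM, close to blood endothelium at 371 ± 173 CPM and stroma with mesothelial markers at 362 ± 255 CPM (SD, n = 3). Lymphatic endothelium lay above epithelium by 6.62 ± 0.48 (log2, SE; adjusted p = 1.67e-11), and macrophages lay below it by 3.41 ± 0.83 (adjusted p = 0.00117). Timp3 and Syn3 lie on opposite strands with overlapping exons, and whether strand was used in counting is not given in the sources used here. Syn3 was also 1 of the 3 genes whose pattern was most like that of Timp3 over 27 wild-type sums (r = 0.94), with Rhoj (r = 0.95) and Wwtr1 (r = 0.94). For the other members the closest gene was Tcf21 for Mmp2 (r = 0.85), Lsamp for Mmp3 (r = 0.93), Gfpt1 for Mmp7 (r = 0.78) and Fxyd2 for Mmp9 (r = 0.79). It was Arl11 for Mmp12 (r = 0.97), Igf2r for Mmp14 (r = 0.83), Col6a5 for Mmp19 (r = 0.78), C1ra for Timp1 (r = 0.87) and Rcn3 for Timp2 (r = 0.93). These are Pearson correlations of log2(CPM + 1) over 9 classes in 3 libraries, which share libraries and depth, and they are given as descriptions.

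Of the 6 members that passed the filter in the wild-type fits, 5 were higher and 1 lower in fibroblasts than in epithelium, where 38.2% of all genes tested were called and 23.1% were higher. In macrophages 1 was higher and 2 were lower than in epithelium (50.0% of genes called), and fibroblasts exceeded macrophages in 5 (39.3% called, 20.7% higher). Mesothelial cells (39.1% called) and lymphatic endothelium (37.3% called) exceeded epithelium in 4 and in 2 members, and each was lower in Mmp7. Mmp7 was also lower than in epithelium in the other classes tested, by -2.87 ± 0.44 (log2, SE) in tuft cells (15.9% of genes called), -4.87 ± 0.44 in stroma with mesothelial markers (40.8% called), -5.25 ± 0.65 in blood endothelium (30.0% called) and -6.07 ± 0.71 in monocytes (37.4% called). The other 4 members, Mmp3, Mmp9, Mmp12 and Mmp19, were too low in most wild-type sums to pass.

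In the GOF epithelium Timp3 rose and Mmp7 lay above every wild-type value without passing the test. Timp3 measured 249 CPM in the GOF library against 16.5, 41.0 and 22.4 CPM in wild type. The GOF value lay far above the whole wild-type range, and the log2 fold change was 2.92 ± 0.42 (SE; adjusted p = 0.0104, edgeR). Of the 10 members 8 passed the filter in epithelium, and 2 rose, Timp3 and Mmp12, and none fell, where 15.5% of 15480 genes were called and 12.1% rose.

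After each cell was thinned to 2000 UMIs, 28.0% of GOF epithelial cells had a Timp3 UMI (exact 95% interval 26.6 to 29.4%), against 2.73%, 5.54% and 4.42% of wild-type epithelial cells. The shares before thinning were 52.9% against 9.58%, 17.1% and 9.52%. Macrophages, which hardly express Timp3, had a Timp3 UMI in 1.33% of GOF cells and in 0%, 0.909% and 1.52% of wild-type cells after thinning. The GOF epithelial share stood above the GOF macrophage share, and the part of free RNA in it was not tested. Median UMIs before thinning were 7996, 7768, 3659.5 and 2415 in epithelium and 8108.5, 5017, 5465 and 2565 in macrophages. Intervals cover counting error only.

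Several values moved with Timp3 in epithelial cells. The opposite-strand gene Syn3 stood at 60.5 CPM in GOF against 2.85, 4.53 and 3.51 CPM. The summed level of the 7 mesothelial markers in the epithelial class was 138 CPM in GOF, with 7 of 7 detected, and 33.9, 31.7 and 17.0 CPM in wild type, with 6 or 7 detected. Genes with 20 to 50 kb of intron, the bin of Timp3, had a median log2 fold change of 0.05 and 8.38% of them rose. Genes with over 50 kb, the bin of Timp2, had a median of 0.81 and 31.3% of them rose. The part of overlap, mesothelial RNA and intron counting in the Timp3 result was not tested.

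Mmp7 stood at 1643 CPM in GOF epithelium against 195, 207 and 1378 CPM. The GOF value was above all 3 but close to wild-type library 3, and the log2 fold change of 1.12 ± 1.11 (SE) did not pass (adjusted p = 0.519). Without wild-type library 3 it was 2.74 and passed (adjusted p = 0.0106). Shares of cells gave the same picture. After thinning, 67.6% of GOF epithelial cells had an Mmp7 UMI (66.1 to 69.0%), against 22.7%, 22.3% and 69.9% in wild type, and before thinning 83.8% against 46.3%, 35.4% and 79.5%. Wild-type library 3 thus overlapped GOF in share, and its interval ran from 66.1 to 73.5%. In macrophages, which stood below epithelium in Mmp7, the thinned share was 7.96% in GOF and 2.56%, 0.909% and 7.58% in wild type. It was highest in the same libraries as the epithelial level. The part of free RNA in these macrophage shares was not tested.

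**Figure D2:**
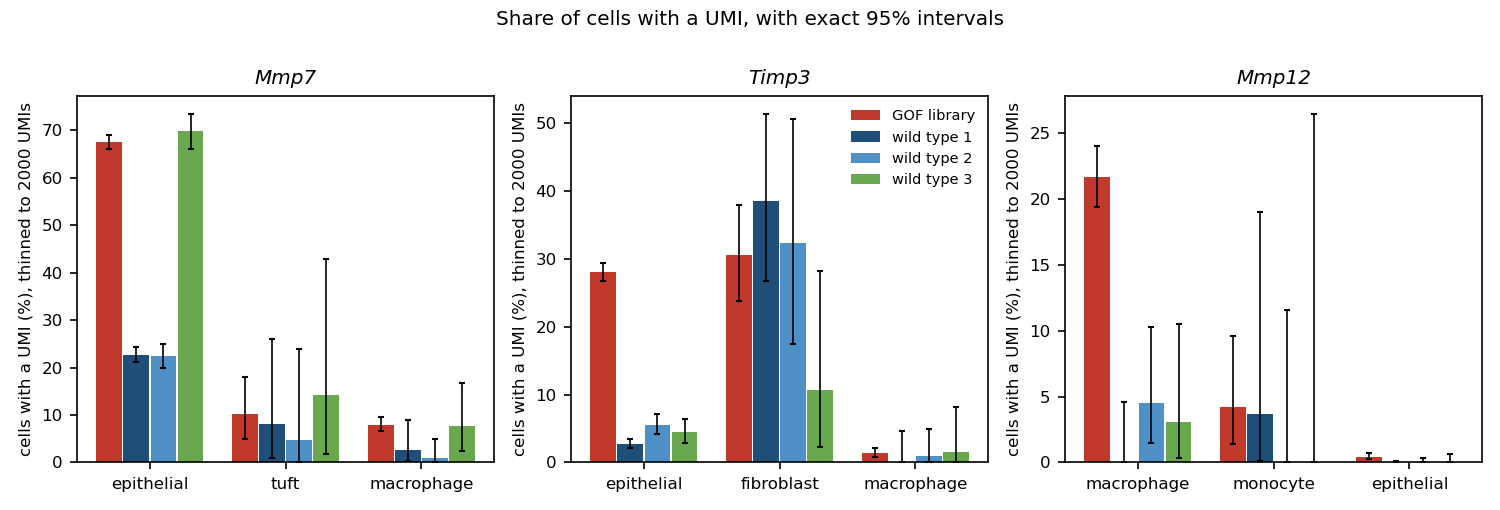
Percent of cells with at least 1 UMI of Mmp7, Timp3 or Mmp12 after thinning to 2000 UMIs, with 1 bar for each library and exact 95% intervals, in the class that carries the gene and in comparison classes. The Timp3 bar of GOF epithelium (28.0%) is far above the wild-type bars, the Mmp7 bars of GOF (67.6%) and wild type 3 (69.9%) are alike, and the Mmp12 bar of GOF macrophages (21.6%) is above all wild-type bars.

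The GOF duct is a mosaic, and its epithelial cells differed in UMIs of 10 Wnt feedback genes (Axin2, Nkd1, Notum, Lgr5, Sp5, Lef1, Tcf7, Apcdd1, Znrf3 and Rnf43). Of the thinned GOF cells, 1908 had no such UMI, 967 had 1 and 1256 had 2 or more. Timp3 stood at 168, 227 and 349 CPM in these 3 groups, and Mmp7 at 1384, 1616 and 2406 CPM. Both were highest in the cells with most feedback UMIs. A Timp3 UMI was present in 21.4%, 26.8% and 37.4% of the cells, while the Timp2 share was 35.3%, 34.9% and 35.0%. Mmp14 also went up, from a lower level, with 44.3, 50.2 and 60.1 CPM and a share of 8.49%, 9.41% and 10.9%. Cells of 1 library are not replicates, so these values are a description with no test, and GOF cells with no feedback UMI still stood above wild type in Timp3.

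**Figure D3:**
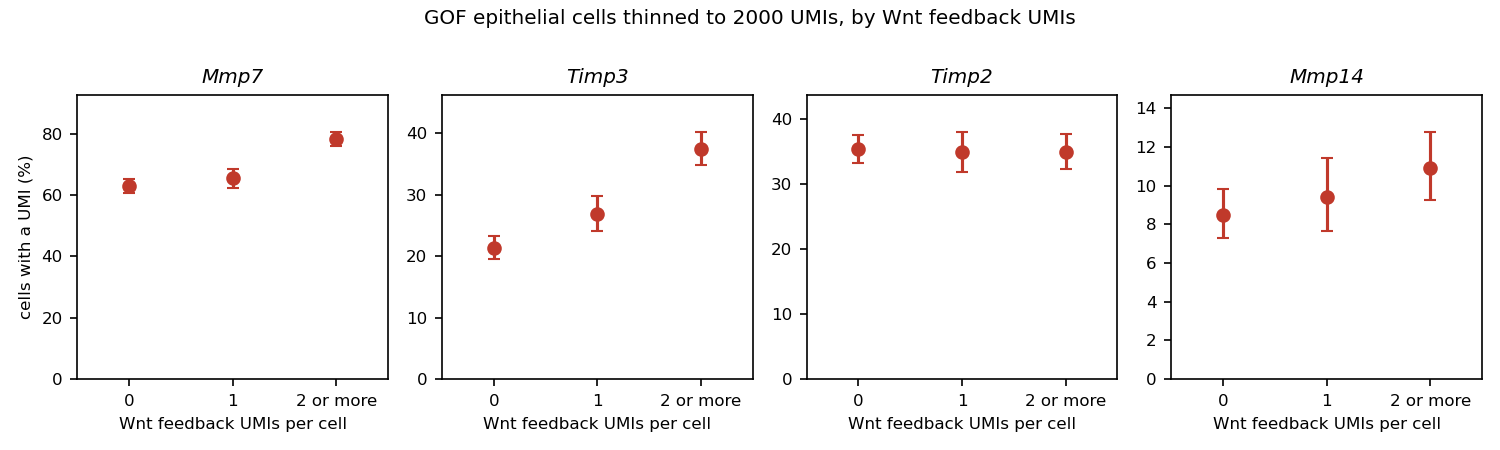
Percent of GOF epithelial cells with a UMI of Mmp7, Timp3, Timp2 or Mmp14 against the number of Wnt feedback UMIs in the cell, after thinning to 2000 UMIs, with exact 95% intervals for counting error. The Timp3 share goes from 21.4% to 37.4%, the Mmp14 share goes from 8.49% to 10.9%, and the Timp2 share stays between 34.9% and 35.3%.

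Timp2 stood at 235 CPM in GOF epithelium against 122, 134 and 109 CPM. GOF was above all wild-type libraries, but the log2 fold change of 0.63 ± 0.19 (SE) did not pass (adjusted p = 0.0756). It passed with DESeq2 (adjusted p = 0.041) and without TMM scaling (0.95, adjusted p = 0.0261). TMM scaling lowers the median of all genes by 0.32 in epithelium, by 0.18 in fibroblasts and by 0.03 in macrophages relative to totals alone. Mmp14 stood at 46.8 CPM against 22.8, 39.7 and 39.2 CPM (0.16 ± 0.34, adjusted p = 0.776) and Timp1 at 11.9 CPM against 7.06, 7.52 and 4.68 CPM (0.55 ± 0.32, adjusted p = 0.281). Timp1 passed in epithelium only with doublets kept (1.42, adjusted p = 0.0278), among the alternatives run.

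Mmp12 rose by 5.90 ± 0.83 (log2, SE; adjusted p = 0.010) in GOF epithelium from a level near nothing, 3.48 CPM against 0.0309, 0.0964 and 0 CPM. Those values rest on 216 UMIs against 1, 1 and 0. Mmp12 was also detected at 1.501 to 11.04 CPM, from 1 to 8 UMIs each, in GOF tuft cells, fibroblasts, stroma with mesothelial markers, mesothelial cells, blood endothelium, muscle, neutrophils and T and NK cells, where the wild-type libraries, with fewer cells in most of these classes, had none. Its ratio to Lyz2, an abundant myeloid gene, was 3.18 per 100 Lyz2 UMIs in GOF epithelium and 2.30 in GOF macrophages, and it ran from 0 in lymphatic endothelium to 7.89 in T and NK cells over the GOF classes, most of them with few Mmp12 UMIs. Lyz2 stood at 109 CPM in GOF epithelium against 3.19, 20.2 and 11.3 CPM. The part of free RNA in the epithelial value was not tested.

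In tuft cells, chemosensory cells of the epithelium, Mmp7 rose by 1.96 ± 0.42 (log2, SE; adjusted p = 4.23e-05), with 306 CPM against 40.2, 11.03 and 222 CPM. Of the 3 members tested 1 was called, where 22.6% of genes were called and 16.5% rose. The tenth of GOF tuft cells with most Mmp7 held 93.2% of its UMIs, and after thinning 10 of 98 GOF tuft cells had a UMI against 2 of 25, 1 of 21 and 2 of 14, beside a share of 7.96% in GOF macrophages. The call was lost with DESeq2 (adjusted p = 0.584) and with a looser gate. Timp3 in tuft cells did not pass the filter on low counts. It stood at 66.4 CPM against 5.03, 11.03 and 0 CPM, from 45 UMIs against 1, 1 and 0, and with every gene kept it rose by 3.47 ± 0.86 (adjusted p = 0.0019).

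GOF fibroblasts gave no member past the test. Of 8 members tested 0 were called by edgeR and 0 by DESeq2, and 2 had an unadjusted p under 0.05, where 11.1% of 5438 genes were called. Mmp3 stood at 194 CPM against 38.9, 77.5 and 119 CPM, from 239 against 11, 13 and 26 UMIs. GOF was the highest library, with a log2 fold change of 1.18 ± 0.45 (SE; adjusted p = 0.112). Timp2 stood at 1159 CPM against 2779, 2086 and 1350.0 CPM, the lowest of the 4 libraries, at -0.99 ± 0.43 (adjusted p = 0.160). Mmp2 stood at 669 CPM, Mmp14 at 182 CPM, Mmp19 at 57.5 CPM and Timp3 at 229 CPM, each inside the wild-type range.

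The fibroblast values depended on the stromal gate. With fibroblasts that carried some mesothelial-marker UMIs kept, the class held 318 GOF cells against 85, 76 and 136, instead of 215 against 78, 66 and 135. Mmp3 then stood at 125 CPM against 36.0, 61.8 and 117 CPM, with GOF close to wild-type library 3. Mmp14 stood at 260 CPM against 121, 162 and 329 CPM, still inside the wild-type range. Timp1 also depended on this gate. It stood at 644 CPM in GOF fibroblasts against 77.8, 513 and 68.4 CPM, with a log2 fold change of 1.44 ± 0.72 (SE; adjusted p = 0.225). When fibroblasts with some mesothelial-marker UMIs were kept, it stood at 1493 CPM against 75.3, 485 and 67.7 CPM and passed (2.67, adjusted p = 0.0236). Wild-type library 2 was the highest of the wild-type libraries in both versions, and without it 1 fibroblast member, Timp1, was called.

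In stroma with mesothelial markers 3 of 7 tested members rose, Mmp2, Mmp14 and Timp1, and none fell, where 7.52% of 9549 genes were called and 6.08% rose. Timp1 stood at 2427 CPM in GOF and at 115, 620.1 and 105 CPM in wild type, with GOF above the whole wild-type range (2.92 ± 0.69, log2, SE; adjusted p = 0.0141). Mmp14 stood at 314 CPM against 91.2, 113 and 76.1 CPM, also without overlap (1.61 ± 0.42, adjusted p = 0.0251). Mmp2 stood at 51.1 CPM against 14.4, 0 and 7.24 CPM, from 153 against 3, 0 and 2 UMIs (3.84 ± 0.86, adjusted p = 0.0104).

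Timp2 was again lower in GOF, at 781 CPM against 1901, 1741 and 808 CPM, without passing (-1.01, adjusted p = 0.324), and Timp3 stood at 680.2 CPM against 134, 638 and 315 CPM (0.76, adjusted p = 0.577). The make-up of the class moved with these results. In this fibroblast-mesothelial stroma the summed level of the 7 mesothelial markers was 1223 CPM in GOF against 2511, 1269 and 2368 CPM, all 7 detected in each library, and Lum stood at 64.2 CPM against 24.0, 17.8 and 32.6 CPM. The class was split off on raw UMIs, and its median UMIs per cell were 16122 in GOF against 5038.5, 7638 and 3846 in wild type. The part of make-up and of depth in the 3 calls was not tested. All 3 calls were lost with DESeq2 (adjusted p = 0.382, 0.117 and 0.616 for Mmp2, Mmp14 and Timp1) and with a stricter gate. Leaving out wild-type library 1 left 1 call, Mmp2, leaving out library 2 lost Mmp2, and leaving out library 3 left 0 calls.

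In mesothelial cells 1 of 7 tested members rose, where 13.4% of genes were called and 10.2% rose. That member was Mmp7, at 31.3 CPM against 2.36, 9.37 and 20.1 CPM (2.16 ± 0.63, log2, SE), at a level no higher than in GOF macrophages (34.8 CPM). That call was lost with DESeq2, with the looser gate and without wild-type library 1. The members that mesothelial cells carry did not pass. Timp1 stood at 666 CPM against 330.5, 618 and 301 CPM (0.56, adjusted p = 0.427) and Timp3 at 541 CPM against 463, 481 and 368 CPM (0.19, adjusted p = 0.781).

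GOF macrophages held far more Mmp12 than wild-type macrophages. Mmp12 stood at 484 CPM, from 5793 UMIs, against 9.30, 47.2 and 123 CPM, and GOF lay above every wild-type library. The log2 fold change was 3.12 ± 0.66 (SE; adjusted p = 0.0053). Of 7 members tested 2 rose, Mmp12 and Mmp19, and 5 had an unadjusted p under 0.05, where 11.5% of 8012 genes were called and 8.61% rose. After thinning, 21.6% of GOF macrophages had an Mmp12 UMI (19.4 to 24.0%), against 0 of 78 cells, which allows a share of up to 3.85%, and 4.55% and 3.03% of the cells of the other wild-type libraries. Before thinning the shares were 32.2% against 3.53%, 6.20% and 1.83%, and in epithelium, which should lack Mmp12, the thinned share was 0.436% in GOF and 0% in each wild-type library.

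Mmp19 stood at 47.9 CPM in GOF macrophages against 0, 14.5 and 10.3 CPM, from 574 against 0, 12 and 3 UMIs (2.43 ± 0.68, log2, SE; adjusted p = 0.028), and the call was lost with DESeq2 (adjusted p = 0.263). Mmp14 stood at 171 CPM against 5.58, 16.9 and 103 CPM, above all 3 without passing (2.27 ± 0.74, adjusted p = 0.0589). Timp1 stood at 71.2 CPM against 1.86, 35.1 and 10.3 CPM (1.96 ± 0.63, adjusted p = 0.0575), and Mmp9 at 50.7 CPM against 37.2, 8.47 and 17.1 CPM (1.28 ± 0.56, adjusted p = 0.165). For these 3 proteases and Timp1 GOF was the highest library, and Mmp14 and Timp1 passed without wild-type library 2 and also without library 3. Timp2 was the tested member that was lowest in GOF, at 449 CPM against 902, 659.7 and 758 CPM (-0.81 ± 0.47, adjusted p = 0.316).

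Macrophages were told from monocytes and dendritic cells by the highest marker score alone, and the macrophage class itself differed between libraries. The summed level of its 8 markers was 5622 CPM in GOF against 19395, 8823 and 14881 CPM, with 8 of 8 detected in each macrophage sum. C1qc, a complement gene of resident macrophages, stood at 889.7 CPM against 5707, 2877 and 5043 CPM. The part of this difference in the metalloproteinase results was not tested. Within GOF macrophages thinned in a separate random draw, the 285 cells with an Mmp12 UMI stood at 107 CPM for Mmp19 and the 996 cells without at 33.1 CPM, while Mmp14 stood at 163 and 173 CPM. The summed C1qa, C1qb and C1qc level was 3781 CPM in the former and 5127 CPM in the latter. These are cells of 1 library, given with no test.

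**Figure D4:**
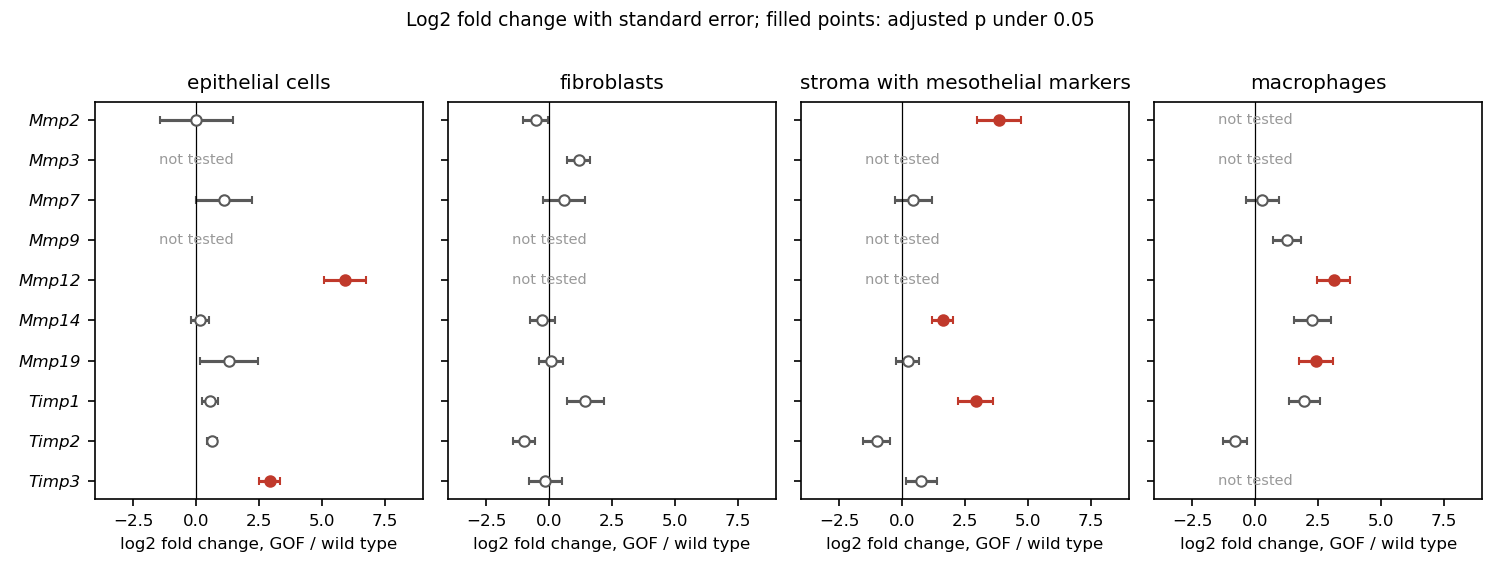
Log2 fold change of GOF against wild type with its standard error for each member in 4 classes, where filled points have an adjusted p under 0.05 and members that did not pass the filter are marked as not tested. The filled points are Mmp12 and Timp3 in epithelium, Mmp2, Mmp14 and Timp1 in stroma with mesothelial markers, and Mmp12 and Mmp19 in macrophages, and fibroblasts have none.

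Endothelial cells and monocytes gave no call. In lymphatic endothelium 0 of 3 members tested were called, with 0 at an unadjusted p under 0.05, where 15.2% of genes were called. Timp3 there stood at 2341 CPM against 2143, 2390.5 and 3405 CPM (-0.38 ± 0.31, log2, SE; adjusted p = 0.446, edgeR), inside the wild-type range. In blood endothelium, again with 15.2% of genes called, 0 of 2 members were called and 0 had an unadjusted p under 0.05. Timp3 stood at 658 CPM against 175, 433 and 504 CPM (0.74 ± 0.41, adjusted p = 0.2497). In monocytes 0 of 4 were called by edgeR and 1 had an unadjusted p under 0.05 (6.48% of genes called), with Mmp12 at 122 CPM against 44.6, 0 and 0 CPM (2.73 ± 1.20, adjusted p = 0.215). DESeq2 called 0 members in each of these 3 classes. Neutrophils had too few cells in wild-type library 3 for the planned test. In the alternative below, their Mmp7 values ranked the libraries in the same order as the epithelial values did. The part of free RNA in the neutrophil Mmp7 values was not tested. In an alternative chosen after seeing the data, with cells of at least 200 genes, Mmp9 stood at 491 CPM against 676, 784 and 1307 CPM (-1.14 ± 0.90, adjusted p = 0.552). Of the 6 members tested there 2 rose, where 7.58% of genes were called and 6.35% rose. Mmp14 stood at 50.7 CPM against 1.27, 11.8 and 0 CPM (3.45 ± 0.95, adjusted p = 0.0194) and Mmp7 at 124 CPM against 6.97, 32.3 and 70.03 CPM (2.43 ± 0.75, adjusted p = 0.0387), both above every wild-type library.

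The GOF effect on 2 inhibitors differed between epithelium and fibroblasts. With the library as a block, the Timp3 effect in fibroblasts was lower than in epithelium by 3.00 on the log2 scale (-3.00 ± 0.44, SE; adjusted p = 1.12e-08), and that on Timp2 was also lower (-1.57 ± 0.41, adjusted p = 0.0131), a call lost without wild-type library 1 or 2. Of the 10 members 2 were called, both lower in fibroblasts, where 1.21% of 14155 genes were called and 0.848% were lower. Between macrophages and epithelium 1 of 9 members differed, where 2.41% of genes were called and 1.05% were higher. That was Mmp14, whose GOF effect was higher in macrophages by 2.45 ± 0.57 (adjusted p = 0.00575). The Mmp12 effect did not differ past the threshold (-1.80, adjusted p = 0.393). Without the replicate block none of the 3 differences passed (adjusted p = 0.742 for Timp3, 0.693 for Timp2 and 0.610 for Mmp14).

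The 6 lists of related genes were chosen with earlier results of these data known. Their GOF effects are described for epithelium, fibroblasts and macrophages only. The list of inducers of metalloproteinase genes was also higher in GOF elsewhere. Its median log2 fold change was 2.03 in tuft cells, 1.99 in stroma with mesothelial markers and 3.08 in mesothelial cells. It was 3.17 in blood endothelium, 1.39 in lymphatic endothelium and 1.38 in monocytes. The all-gene median in these classes ran from -0.13 to -0.00037. Of 10 genes of plasminogen activation, which supplies the plasmin that activates proenzymes, 8 were tested in epithelium and 2 rose and none fell, with a median log2 fold change of 2.18 against 0.02 over all genes, of which 12.1% rose. Plat, the tissue plasminogen activator, stood at 343 CPM against 32.1, 30.5 and 5.85 CPM (3.57 ± 0.68, adjusted p = 0.0237). The other, Serpinf2, stood at 1.03 CPM and is named because it completes the count. Of 11 inducers of metalloproteinase genes 10 were tested and 2 rose (median 1.40), namely Atf3, at 2697 CPM against 9.01, 15.997 and 17.2 CPM, and Fosl1, an AP-1 subunit, at 31.9 CPM against 0.867, 1.16 and 0.390 CPM.

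Of 17 other metalloproteinases with Timp4, 7 were tested in epithelium and 1 rose (median 0.39). It was Mmp28, at 15.3 CPM against 2.66, 2.22 and 3.51 CPM. Of 17 Adam and Adamts proteases with their inhibitor Reck, 15 were tested, 2 fell and none rose (median -0.06). The sheddase Adam9 stood at 42.1 CPM against 90.1, 79.4 and 64.4 CPM, and Adamts15 was the other. Of 15 matrix substrates 1 rose, the laminin Lama4, at 27.7 CPM against 3.99, 8.77 and 4.88 CPM (median 0.73), and of 9 cathepsins and convertases none passed (median 0.01).

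In fibroblasts, where the median of all genes was -0.06 and 8.31% of them rose, 3 of 14 tested Adam and Adamts genes rose and none fell (median 0.17). They were Adam12, at 176 CPM against 3.54, 23.8 and 4.56 CPM, Adamts9, at 82.6 CPM against 10.6, 5.96 and 9.12 CPM, and Adamts10, at 134 CPM against 35.4, 65.6 and 41.0 CPM. Of 5 tested inducers 1 rose, Atf3, at 297 CPM against 10.6, 11.9 and 18.2 CPM (median 0.99). Of genes with over 50 kb of intron 23.7% rose in fibroblasts (median 0.89), against 0.746% to 2.21% in the bins of shorter introns, and the part of intron length in these list counts was not tested. None of 15 substrates (median -0.01), 7 cathepsins and convertases (median -0.37) or 2 other metalloproteinases (median 0.63) passed.

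In macrophages, where the median of all genes was -0.07 and 8.61% of them rose, 3 of 10 tested inducers rose and none fell (median 1.71). Il1b, a cytokine that induces metalloproteinases, stood at 425 CPM against 26.0, 24.2 and 17.1 CPM, Fosb at 109.6 CPM against 14.9, 16.9 and 34.3 CPM, and Atf3 at 356 CPM against 26.0, 139 and 48.0 CPM. Of 7 tested Adam and Adamts genes 1 rose, Adam19, at 30.1 CPM against 3.72, 3.63 and 3.43 CPM (median -0.04). Of genes with over 50 kb of intron 25.1% rose in macrophages (median 0.92), against 2.58% to 3.54% in the bins of shorter introns, and its part in these counts was not tested. None of 5 genes of plasminogen activation (median -0.03), 7 cathepsins and convertases (median -0.41) or 6 substrates (median 0.63) passed, and no other metalloproteinase could be tested.

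Of 15 substrates in the normal duct, 14 were higher and 1 lower in fibroblasts than in epithelium, where 38.2% of all genes were called and 23.1% were higher. Their median was 8.26 against 0.08 over all genes, but Col1a1, Col1a2, Col3a1 and Dcn also served to gate fibroblasts. Those not used in that gate were led by Nid1 (10.23 ± 0.44, log2, SE; adjusted p = 1.38e-14), and Spp1, osteopontin, was the 1 that was lower (-4.13 ± 0.81, adjusted p = 1.21e-04). Against epithelium 14 were likewise higher in stroma with mesothelial markers (median 6.57) and in mesothelial cells (median 5.45), where 40.8% and 39.1% of all genes were called. In each endothelial class 9 were higher (median 3.33 in blood and 2.70 in lymphatic endothelium), where 30.0% and 37.3% were called. Of 8 tested cathepsins and convertases 6 were higher in fibroblasts, among them the convertases Pcsk6 (8.01) and Pcsk5 (6.43). In macrophages 6 of the 8 were higher than in epithelium, where 50.0% of all genes were called in either direction. They were led by Ctss, a lysosomal cathepsin (9.83 ± 0.70, adjusted p = 1.53e-12).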

How the data were processed

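Single cells of 4 common bile duct libraries (10x 3′ chemistry, per the labels' protocols) were analysed from the raw counts of UMIs that the authors deposited, whose barcodes had been called as cells beforehand. Cell Ranger 7.0.0 made the GOF matrix and 3.0.2 the wild-type matrices, per the file headers; the submitters' processing notes name Cell Ranger 7.1 and mm10. Neither the gene reference release nor the counting of introns is given in the sources used here. Both the members and the lists were chosen with earlier results of these data known.

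Cells needed at least 500 genes and no more than 25% mitochondrial UMIs, and the highest Scrublet scores (scanpy 1.11.5) were left out at 0.8% per 1000 barcodes, which removed 881, 248, 72 and 46 cells. Median mitochondrial shares were 2.99% in GOF and 10.1%, 11.5% and 14.8% in wild type. A cell joined a class with at least 3 UMIs from at least 2 of its markers and a scaled score 1.5 times that of the next class (tuft cells: 3 markers). Macrophages, monocytes and dendritic cells each took their highest score and needed this margin only over the classes outside these. Fibroblasts needed no margin over the mesothelial score, and tuft cells needed none over the epithelial score. Cells led by the mesothelial score without the margin over the fibroblast score joined the stroma with mesothelial markers. The gate was revised several times after the data were seen; the split of the stroma and the treatment of the myeloid classes were set after member levels by class had been seen. Cells of no class numbered 1261 in GOF and 483, 530 and 569 in wild type.

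UMIs were summed per library and class and compared with edgeR 4.0.16 (R 4.3.3; quasi-likelihood, TMM, filterByExpr), adjusted by Benjamini-Hochberg over all genes at 0.05, in classes with at least 20 cells in every library. GOF against wild type leaves 2 residual degrees of freedom. Wild-type classes and differences between GOF effects were fitted with the library as a block, since both classes come from the same libraries. In simulated counts for the epithelial fit over 15480 genes, 96% of 100 genes changed 4-fold and 100% of 100 changed 16-fold were recovered. The simulated libraries shared the same wild-type means and a fixed dispersion of 0.05, and only genes above 20 CPM were changed. Mmp7 in epithelium varied more than that between wild-type libraries, so the recovery does not say how often a change in such a member would be found. Named genes were the 10 members, up to 4 genes per list past the threshold with the largest change and 20 CPM or more in the higher group, and the 3 genes of most similar pattern; Serpinf2, Mmp28 and Adamts15, below that level, were named after their values were seen, as was Lyz2. Alternatives were no TMM, DESeq2 1.42.0, no filter, at least 200 genes, doublets kept, stricter and looser gates, each wild-type library left out, no block, thinning to 1000 UMIs, and 2 chosen after seeing the data (fibroblasts with mesothelial UMIs kept, and neutrophils with at least 200 genes). One result of a gene list in fibroblasts is not reported here.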

Additional observations from a re-analysis of the deposited data

Results flagged for a closer look

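The GOF effects on 3 members differed between classes in a test of the difference itself, with libraries as blocks. These calls were lost without the replicate block, and that on Timp2 also without wild-type library 1 or 2. The part of intron counting in the Timp2 and Timp3 effects was not tested. The effects on Timp3 and Timp2 were lower in fibroblasts than in epithelium, by -3.00 and -1.57 on the log2 scale, and the effect on Mmp14 was higher in macrophages than in epithelium, by 2.45.

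Cells that joined no class were used in no main comparison, and 9 members stood above every wild-type library there in GOF. The share of all genes that did so was not counted. These cells took in fibroblasts left out for carrying some mesothelial-marker UMIs. With those kept, fibroblasts numbered 318 in GOF and 85, 76 and 136 in wild type, instead of 215 and 78, 66 and 135. The part of this gate in the values below was not tested. Among the proteases, Mmp2 stood at 77.4 CPM against 8.45, 7.95 and 47.5 CPM, Mmp3 at 6.96 CPM against 0.302, 0 and 0 CPM, and Mmp9 at 25.5 CPM against 9.36, 7.22 and 4.59 CPM. Mmp12 stood at 144 CPM against 0.302, 0.722 and 0.511 CPM, Mmp14 at 199.5 CPM against 26.6, 56.3 and 69.9 CPM, and Mmp19 at 32.7 CPM against 2.11, 7.58 and 5.11 CPM. Among the inhibitors, Timp1 stood at 1183 CPM against 8.15, 102.9 and 12.8 CPM, Timp2 at 474 CPM against 164, 435 and 195 CPM, and Timp3 at 325 CPM against 37.4, 204 and 80.2 CPM. These cells held 44.4% of all Timp1 UMIs of the GOF library. Mmp7 was the exception, at 248 CPM against 115, 103 and 824 CPM. These differences were not tested.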

How the results depend on the processing

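Over 526 results of single members under an alternative, 470 kept their direction and their side of the threshold, 23 lost the call, 27 gained one and 6 changed sign. Timp3 in epithelium (2.65 to 3.30) and Mmp12 in macrophages (2.60 to 4.01) kept their calls under every alternative run. The sign changes were all among uncalled values: Timp3 in fibroblasts without TMM (0.036) and without wild-type library 2, Mmp14 in epithelium without library 1, Mmp2 and Mmp14 in fibroblasts without library 3, and Mmp14 with fibroblasts carrying mesothelial UMIs kept (0.18). With a library left out, Timp3 in fibroblasts ran from -0.62 to 0.40, Mmp14 in epithelium from -0.070 to 0.31, and Mmp2 and Mmp14 in fibroblasts from -0.78 to 0.033 and from -0.58 to 0.38.

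Counts of called members moved as follows. The share of all genes called under each alternative is not set beside them, so a changed count need not be particular to the members. In fibroblasts (0) they were 1 without TMM, 2 without the filter, 2 with the stricter gate, 1 with mesothelial UMIs kept, and 0 to 4 with a wild-type library left out, highest without library 3. In macrophages (2) they were 1 with DESeq2, 4 without the filter and 3 to 4 with a library left out. In epithelium (2) they were 3 with DESeq2, without TMM and with doublets kept, and 2 to 3 with a library left out. In the classes other than these 3 (5 in all: tuft cells 1, stroma with mesothelial markers 3, mesothelial cells 1) they were 0 with DESeq2, 8 without the filter, 0 with the stricter gate and 1 with the looser gate, which left fewer classes to test, and 3 to 6 with a library left out. In wild type, macrophages against epithelium (3) gave 5 with DESeq2, 6 without the filter and 3 to 5 with a library left out, and fibroblasts against macrophages (5) gave 9 without the filter. The fibroblast difference from epithelium (2) gave 1 to 2 with a library left out, and the macrophage difference (1) gave 2 without TMM and 1 to 2 with a library left out. Without the replicate block both differences gave 0. No paired analysis was possible because GOF and wild type share only the replicate number 1. Apart from the filter, gates and libraries left out, whose construction changes what is tested, the cause was not tested.

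Thinned to 1000 UMIs, shares were lower throughout: Mmp7 in epithelium 54.9% in GOF and 13.8%, 14.1% and 56.9% in wild type, Timp3 17.8% against 1.47%, 3.76% and 2.01%, and Mmp12 in GOF macrophages 16.2%. Depth limits Mmp3, Mmp9, Mmp12 and Mmp19 outside their main classes, where wild-type sums hold few UMIs.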
